A study of Mus musculus with 2 samples.

Results

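The 10 genes described here encode parts of the lens capsule and its assembly: the collagen IV chains Col4a1, Col4a2, Col4a5 and Col4a6, the heparan sulfate carriers Col18a1, Hspg2 and Agrn, the linker Nid1, the collagen-binding protein Sparc and the collagen chaperone Serpinh1. They were chosen by name, and every probe whose platform gene symbol equals one of these names was used, which gave 21 of 45281 probes and 10 of 19057 named genes. Both samples were wild-type mouse lens at embryonic stage E12.5. One array measured total RNA of the lens epithelium, the proliferative cell layer at the front of the lens, and 1 array that of the lens fibers, the elongating cells behind it. The strain, the number of embryos pooled and the way epithelium and fibers were separated were not stated in the labels.

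The lens capsule is a basement membrane that encloses the whole lens and thickens as the lens grows. Epithelial cells lay it down at the front and fiber cells at the back. Collagen IV chains form the covalent network that gives it strength, laminins form a second network, nidogen bridges the networks, and perlecan, agrin and collagen XVIII carry heparan sulfate chains that hold water and growth factors such as the FGFs. In bulk samples such as these, fewer cells of a type and less RNA per cell cannot be told apart.

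With 1 array per group there was no replicate, no test and no replicate error, so each ratio describes these 2 arrays. A gene is given by its brightest probe, in quantile-normalized intensity. The floor of each array, 44.5 in epithelium and 32 in fibers, is the 95th percentile of probes of genes not thought to be active in lens, such as olfactory receptors. Where both arrays were above the floor a log2 ratio of fibers over epithelium is given. Where 1 array was, the ratio is a lower bound, set against the other array's floor and marked "at least". Different probes of a gene served as the only repeat measurement: for 459 genes with 2 probes above both floors, the log2 ratios of the 2 brightest differed by a median of 0.50, and by 1.80 at the 90th percentile.

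The labelled tissues carried their markers. All 6 measured markers of lens epithelium, of 7 with a probe, reached 2-fold on the epithelium side, such as Gja1, connexin 43 (399 against 15, at least 12.47-fold), Cdh1, E-cadherin (5.21-fold), Pitx3 (at least 3.03-fold) and Pax6 (2.83-fold). Foxe3, a defining factor of the lens epithelium, was below the floor on both arrays, as was the other Cdh1 probe. All 8 measured fiber markers, of 9 with a probe, were higher in fibers, led by the crystallins Crybb1 (18.5-fold), Crygc (13.5-fold), Crybb3 (10.3-fold) and Crygs (8.86-fold). The connexin gene Gja3 was below both floors.

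The capsule genes did not differ between the arrays in 1 direction. The heparan sulfate proteoglycan genes Hspg2 and Agrn were higher in epithelium, by 6.68-fold and at least 5.02-fold. The collagen IV chain genes Col4a2, Col4a5 and Col4a1 were higher in fibers, by 2.89-fold, at least 2.76-fold and 2.21-fold. Col4a6, Nid1, Sparc and Serpinh1 were under 2-fold by their brightest probes, and Col18a1 was below the floor on both arrays. Of the 9 measured genes, 3 thus reached 2-fold on the fibers side, against 15.6% of all 6451 measured genes, and 2 on the epithelium side, against 19.0%. The median log2 ratio of the 9 was 0.17, against 0.00 over all measured genes, where bounds enter at their value and a bound under 1 counts as 0. Over the 2986 genes above both floors, where no bound enters, the median was -0.19.

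The scale of the arrays bears on the fibers side of this pattern. Of 17 measured housekeeping genes, 9 reached 2-fold on the fibers side and 0 on the epithelium side, with a median log2 ratio of 1.03. When the arrays were scaled to the 10 of them above both floors, 0 capsule genes reached 2-fold on the fibers side and 4 on the epithelium side (Hspg2, Agrn, Col4a6 and Serpinh1), against 3.82% and 45.1% of all measured genes. Col4a1 then had a log2 ratio of 0.20, Col4a2 0.55 and Col4a5 a bound of 0.49. Hspg2 was at -3.67 and Agrn at a bound of -3.27. The gap between members does not move when a whole array is multiplied by a factor. The log2 ratio of Col4a1 lay 3.88 above that of Hspg2, a 14.8-fold difference of ratios, and that gap was 3.87 with the housekeeping scaling and 3.20 to 3.88 over all 9 settings that gave both genes. With a floor at the 99th percentile the gap was a bound of 3.81.

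**Figure D1:**
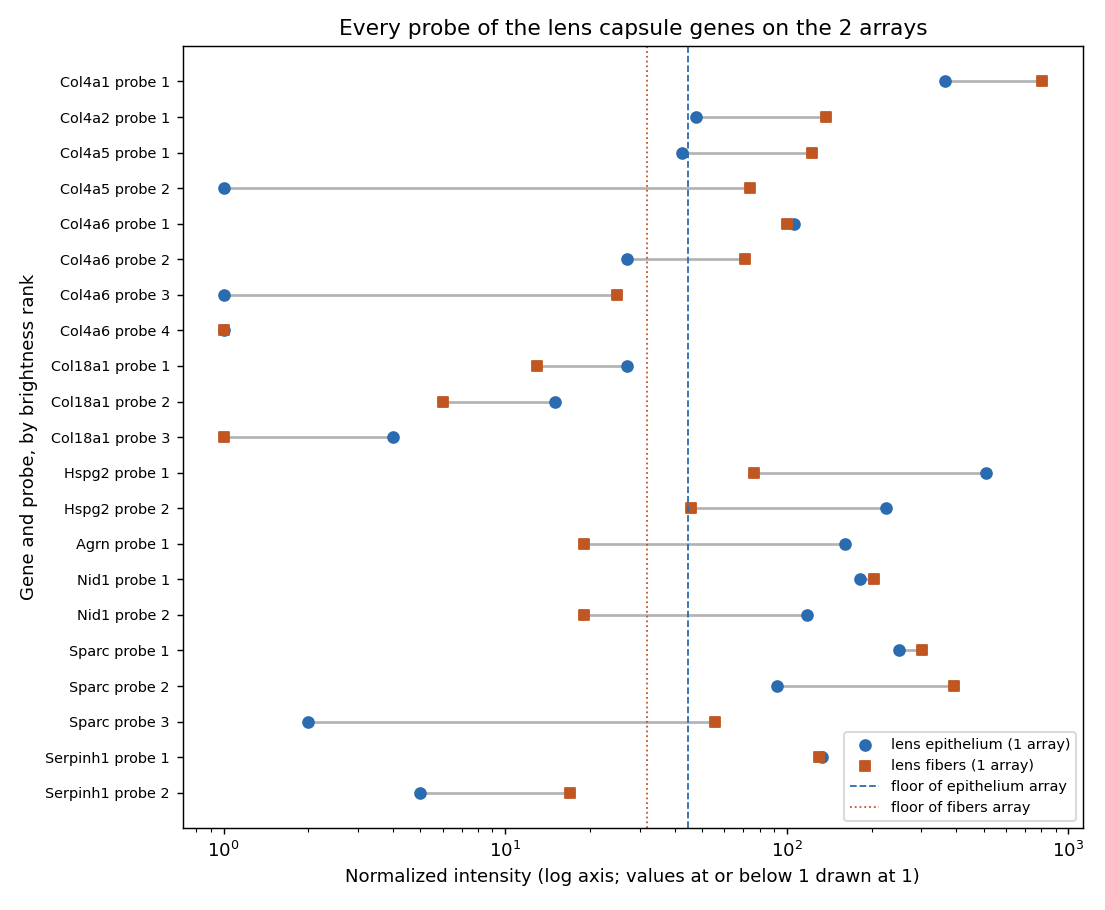
Normalized intensity (log axis) of each of the 21 probes of the 10 capsule genes on the epithelium array (circles) and the fibers array (squares), 1 array each, with the floor of each array as a vertical line. Both Hspg2 probes and the Agrn probe lie to the right in epithelium, the Col4a1, Col4a2 and Col4a5 probes and all 3 Sparc probes to the right in fibers, and the 3 Col18a1 probes are left of the floors.

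Hspg2 encodes perlecan, a very large basement membrane proteoglycan that binds laminin, nidogen and collagen IV. Its brightest probe read 510.8 in epithelium and 76.5 in fibers. The second probe read 224.5 and 45.5, which is 4.93-fold. Both probes were above both floors and both were higher in epithelium, and their log2 ratios of -2.74 and -2.30 differed by 0.44, less than the median difference between probes of a gene. Of 2986 genes above both floors, 2953 had a higher ratio of fibers over epithelium than Hspg2. The log2 ratio, a bound with the 99th percentile floor, stayed between -3.67 and -2.15 over 10 settings.

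Agrn encodes agrin, a heparan sulfate proteoglycan that binds laminin and, at the cell surface, dystroglycan. Its only probe read 160.5 in epithelium and 19 in fibers. The fibers value was 59.4% of the floor of that array, so the ratio of at least 5.02-fold is a bound. With the floor at the 99th percentile of silent probes, 80.7 in fibers, the bound was -0.99 on the log2 scale, just under 2-fold.

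The stretches before the outermost annotated starts of Hspg2 and Agrn are shown because these were the 2 members higher in epithelium and both stretches repeat 1 short motif. The sequences are from RefSeq, build GRCm38.p6, 5′ to 3′ on the strand of the gene, and capitals mark the GC box GGGCGG on either strand (CCGCCC), the motif bound by Sp1-type factors. Hspg2 is shown from chr4:137468553-137468750 on the plus strand and Agrn from chr4:156197534-156197738 on the minus strand.
Hspg2: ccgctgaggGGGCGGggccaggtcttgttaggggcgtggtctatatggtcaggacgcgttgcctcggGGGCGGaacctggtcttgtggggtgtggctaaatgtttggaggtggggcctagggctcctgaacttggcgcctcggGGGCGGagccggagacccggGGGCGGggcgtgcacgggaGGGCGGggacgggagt
Agrn: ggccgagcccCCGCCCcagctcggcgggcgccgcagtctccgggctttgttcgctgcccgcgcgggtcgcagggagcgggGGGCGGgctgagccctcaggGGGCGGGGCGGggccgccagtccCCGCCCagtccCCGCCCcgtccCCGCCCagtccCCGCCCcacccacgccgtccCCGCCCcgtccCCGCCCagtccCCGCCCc

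The Hspg2 stretch of 198 bases held 5 matches and the Agrn stretch of 205 bases held 11, some of them overlapping. Over the full windows of 300 bases, from 250 before to 50 after a start, the counts were 5 for Hspg2 and 12 for this start of Agrn, and 2 for a second Agrn start. At least 1 match stood in 35.7% of all 32851 such windows and 5 or more in 2.71%. These shares were not matched for base composition. The Hspg2 window was 70.3% G or C and the Agrn window with 12 matches 83.3%, against 74.0% for Col4a1 and 73.7% for Col4a2. Of the 12 windows of the members, 10 held at least 1, those of Col4a1, Col4a2, Col4a5 and Col4a6 included. The other windows of the members, all 10 genes being in the table, held 0 to 3 matches. The CCAAT box (CCAAT or ATTGG), found in 37.4% of all windows, stood in 5 of the 12 member windows, those of Col4a1, Col4a2, Col4a5 and Nid1 and 1 of the 2 of Col18a1. The TATA box letters TATAAA or TTTATA, found in 13.6% of all windows, stood in 0 of the 12. These matches are a description of letters and not of binding.

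Collagen XVIII, the product of Col18a1, is a heparan sulfate carrier whose end fragment is endostatin. Its 3 probes read 27, 15 and 4 in epithelium and 13, 6 and 0 in fibers. All 6 values were below the floors, so no ratio is given for this heparan sulfate carrier.

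Col4a1 and Col4a2 encode the chains of the main collagen IV trimer of basement membranes, which holds both. The Col4a1 probe read 364.5 in epithelium and 806.5 in fibers, a log2 ratio of 1.15. The Col4a2 probe read 47.5 and 137.5, a log2 ratio of 1.53. Both genes were higher in fibers, and the 2 ratios differed by less than the median difference between probes of a single gene. The Col4a2 epithelium value was 107% of the floor, so its ratio rests on a value next to the floor, and with the stricter floor it was a bound of 0.32. Of the 2986 genes above both floors, 363 had a higher ratio than Col4a1 and 206 a higher one than Col4a2.

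The pair is read in opposite directions from 1 shared start region on chromosome 8. The annotated starts lie 21 bases apart, each inside the stretch annotated as transcribed from the other gene, so the 2 overlap there. The promoter windows of Col4a1 and Col4a2 share 78 bases, and 30 of these, chr8:11312800-11312829 of GRCm38.p6 on the plus strand, are shown because they cover both starts and hold the single GC box of the shared stretch, in capitals.
Col4a1 and Col4a2: tcggcagtgcgcGGGCGGcgtctccaaggg

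Col4a5 and Col4a6 form the second head-to-head pair, on the X chromosome, with annotated starts 1343 bases apart and no overlap at the starts. Their chains form a trimer together. The brighter Col4a5 probe read 42.5 in epithelium, 95.5% of the floor, and 123 in fibers, at least 2.76-fold. The other Col4a5 probe read 0 and 74, at least 1.66-fold. Both probes were above the floor in fibers only. Col4a6 was not as one-sided: its brightest probe read 105.8 in epithelium and 100 in fibers, a log2 ratio of -0.08. Its second probe read 27 and 71, a bound of 1.60-fold on the fibers side, and its other 2 were below both floors. Col4a3 and Col4a4, whose chains form the third collagen IV trimer together with that of Col4a5, gave at most 3 in epithelium and 2 in fibers on all of their 4 probes, so neither was detected.

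Sparc, also called osteonectin or BM-40, is a secreted protein that binds collagen IV, and mice without it develop cataract and an altered capsule. Its 3 probes cite the same transcript. The brightest read 251 in epithelium against 302.5 in fibers, 1.21-fold. The second read 92 and 392, 4.26-fold. The dimmest read 2 and 55.5, at least 1.25-fold. All 3 were higher in fibers, but the log2 ratios of the first 2 differed by 1.82, just past the 90th percentile of that difference over all genes. With the mean of its probes Sparc had a log2 ratio of 1.12. With the housekeeping scaling its brightest probe was at -0.66 and its second at 1.15, so neither the size nor the direction was settled by these probes.

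Nid1 encodes nidogen-1, which joins laminin to collagen IV and perlecan. Its brightest probe read 182 in epithelium and 204.5 in fibers, a log2 ratio of 0.17. The second probe, which cites another transcript record, read 117.5 and 19, at least 3.67-fold higher in epithelium. The probes thus went in opposite directions, and their log2 ratios were at least 2.04 apart. With the housekeeping scaling the brightest probe was at -0.78, on the epithelium side as well.

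Serpinh1 encodes Hsp47, the chaperone of the endoplasmic reticulum that folding procollagen needs. Its brightest probe read 133.5 in epithelium and 130 in fibers, a log2 ratio of -0.04, and the other was below both floors. It lay in the middle of the distribution, with 1312 of 2986 genes at a higher ratio. With the housekeeping scaling it was at -1.01.

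**Figure D2:**
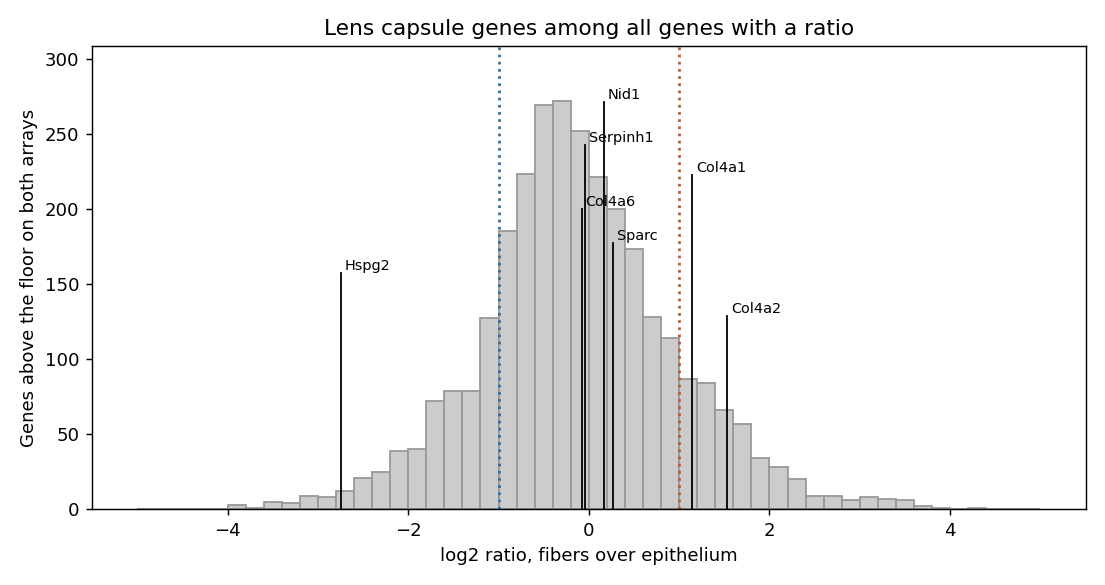
Histogram of log2 ratios, fibers over epithelium, of the 2986 genes above the floor on both arrays, with the 7 capsule genes among them as labelled lines and 2-fold marked by dotted lines. Hspg2 stands in the far epithelium tail, Col4a1 and Col4a2 stand on the fibers side beyond 2-fold, and Serpinh1, Col4a6, Nid1 and Sparc lie near the middle.

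Over all probes of the 10 genes, 15 of 21 cleared a floor. Of these, 4 reached 2-fold on the fibers side (1 each of Col4a1, Col4a2, Col4a5 and Sparc), against 14.9% of all measured probes. Another 4 did so on the epithelium side (both of Hspg2, that of Agrn and 1 of Nid1), against 18.1%. Across the array, the second probe of a gene past 2-fold went past 2-fold the same way in 253 of 1494 genes and was below both floors in 801. Probes of 1 gene were past 2-fold in opposite directions in 38 of 1577 genes with 2 measured probes.

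**Figure D3:**
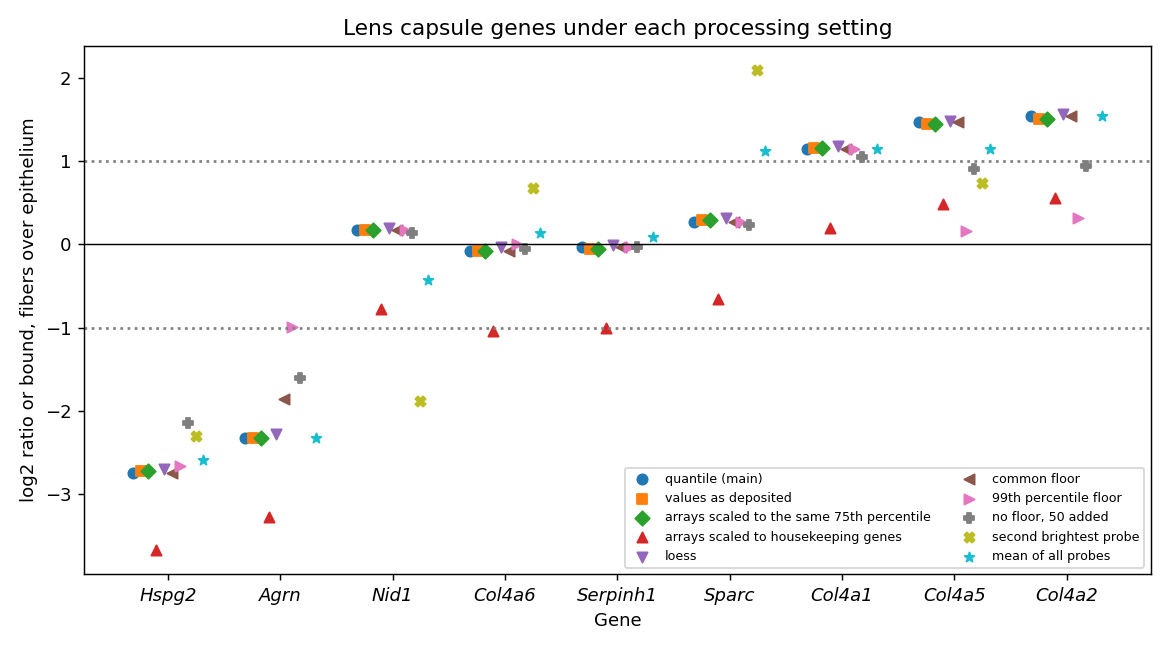
Log2 ratio or bound, fibers over epithelium, of the 9 measured capsule genes (x axis) under the main processing and 9 other settings (symbols), with 0 as a solid line and 2-fold as dotted lines. Hspg2 and Agrn stay below 0 and Col4a1, Col4a2 and Col4a5 above 0 in every setting that gave them a value, while Nid1, Col4a6, Serpinh1 and Sparc lie on both sides.

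The genes around the capsule components were taken from lists of the pathway, which were written with earlier results of these data known. Their counts are a description and stand beside the shares of all measured genes. Of these, 15.6% reached 2-fold on the fibers side and 19.0% on the epithelium side. Of all named genes, 33.9% were measured. Of 10 laminin chain and nidogen 2 genes with a probe, 2 were measured and 0 were past 2-fold. Lamb1 gave 92 in epithelium against 47.5 in fibers (1.94-fold), and Lama1 gave 90 and 63.5 (1.42-fold), and the median log2 ratio was -0.73. Lamc1, the gamma chain that pairs with both in laminin-111, was below both floors, at 3 and 8. Of 16 other basement membrane genes, 4 were measured, 1 reached 2-fold on the fibers side and 2 on the epithelium side. Fbln1, fibulin-1 (at least 7.63-fold), and Bgn, biglycan (at least 2.44-fold), were the 2 on the epithelium side. Pxdn encodes peroxidasin, the enzyme that makes the sulfilimine crosslinks of collagen IV. Its brightest probe gave 159 in epithelium against 342 in fibers (2.15-fold), on the side of Col4a1 and Col4a2. A second Pxdn probe read 68 and 35, 1.94-fold higher in epithelium, and the third read 19 and 76.5, at least 1.72-fold higher in fibers. Col15a1 had no direction. The median log2 ratio of these 4 was -0.64.

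Of 25 genes for collagen modification, folding and export, 11 were measured. Of these, 6 reached 2-fold on the epithelium side, where 19.0% of all genes did, and 1 on the fibers side (15.6%). The median log2 ratio was -1.11. With the housekeeping scaling the counts were 7 and 0, against 45.1% and 3.82% of all genes. P3h2, a prolyl 3-hydroxylase that acts on collagen IV, read 232 in epithelium and 30 in fibers, at least 7.25-fold, and its other probe was below both floors. Colgalt1, which adds galactose to hydroxylysine, stood at least 3.67-fold above its fibers value in epithelium, and the secretory coat gene Sec24d and Preb, a factor for coat assembly, at least 2.94-fold and at least 2.88-fold. The other Sec24d probe was below both floors.

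Of 25 genes for heparan sulfate synthesis and editing, 13 were measured, 5 reached 2-fold on the epithelium side (19.0% of all genes) and 2 on the fibers side (15.6%), and the median log2 ratio was -0.77. With the housekeeping scaling 9 did so on the epithelium side and 0 on the fibers side, against 45.1% and 3.82%. Sulf1, an extracellular sulfatase that trims heparan sulfate, read 352 in epithelium and 22 in fibers, at least 11.0-fold, but its second probe read 53.5 and 38. The sulfotransferase gene Hs2st1 was at least 6.91-fold and the epimerase gene Glce 5.39-fold higher in epithelium, on the side of Hspg2 and Agrn. The other Hs2st1 probe was below both floors. Fam20b, a xylose kinase of the linker region, was 3.17-fold higher in fibers, with a second probe 1.66-fold higher in epithelium.

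Of 20 receptor genes, 9 were measured, 3 reached 2-fold on the fibers side (15.6% of all genes) and 2 on the epithelium side (19.0%). The median log2 ratio was 0.33. With the housekeeping scaling the counts were 0 on the fibers side and 4 on the epithelium side, against 3.82% and 45.1% of all genes. The integrin subunit genes Itga2 (at least 2.66-fold) and Itga6 (2.35-fold) were higher in fibers and Itga3 (at least 3.45-fold) in epithelium. The other Itga6 probes were below both floors. Itgav was 4.36-fold higher in epithelium by its brightest probe, whereas its second gave at least 4.53-fold the other way. Of 15 protease and inhibitor genes, 9 were measured, again 3 on the fibers side and 2 on the epithelium side, with a median log2 ratio of 0.00. Timp3, a matrix-bound protease inhibitor, gave 74 in epithelium against 449.2 in fibers (6.07-fold), and all 3 of its probes were higher in fibers. The protease gene Adamts1 was at least 9.44-fold higher in fibers on 1 of 3 probes, the others being below both floors. Mmp2, gelatinase A (2.64-fold), and Bmp1, the procollagen C-proteinase (2.27-fold), were higher in epithelium. The other Bmp1 probes were below both floors. With the housekeeping scaling, 4 of the 9 in this list reached 2-fold on the epithelium side and 2 on the fibers side, against 45.1% and 3.82% of all genes. Both measured laminin genes and 2 of the 4 measured other basement membrane genes then did so on the epithelium side, and 0 of either list on the fibers side.

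**Figure D4:**
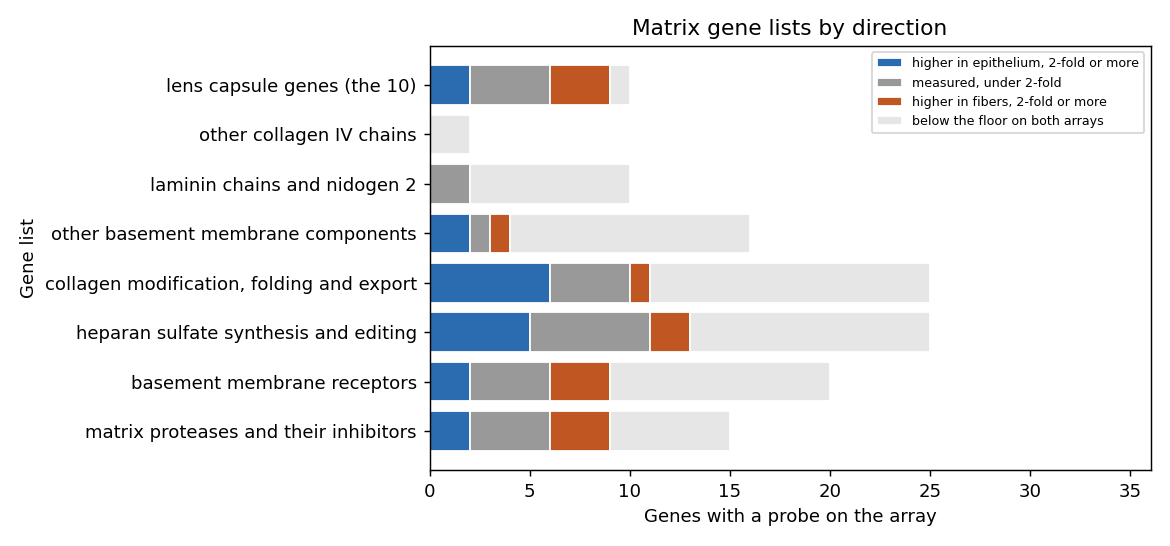
Number of genes with a probe (x axis) in each matrix gene list, split by direction (2-fold or more on the epithelium or the fibers side), with genes under 2-fold and genes below both floors apart. The lists for collagen modification and for heparan sulfate hold more genes higher in epithelium (6 and 5) than in fibers (1 and 2). Most laminin and other basement membrane genes are below the floors, as are most genes on these arrays (33.9% of all named genes were measured).

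Blood vessels and mesenchyme around the lens also make collagen IV, perlecan, nidogen and Sparc, so their markers were read on the same arrays. Of 14 endothelium and pericyte markers, 2 were measured, Tek in fibers only (at least 1.88-fold) and Cspg4, which was 1.64-fold higher in epithelium. The summed signal of the list was 351 in epithelium and 276.5 in fibers, and the other 12 were below both floors, at -8 to 35 in epithelium and -9 to 24 in fibers, 8 of them higher in epithelium and 3 in fibers. Among these, Pecam1 read 3 and -2, Cdh5 4 on both arrays and Tie1 35 and -5. Of 15 mesenchyme markers, 2 were measured, Tfap2b (208.5 and 36, 5.79-fold) and Col5a1 (at least 1.58-fold), both higher in epithelium as Hspg2 and Agrn were. The sum of that list was 398 in epithelium and 99 in fibers, while the other 13 were below both floors, at -5 to 31 in epithelium and -5 to 19 in fibers. Of these 13, 9 read higher in epithelium and 4 in fibers, Col1a2 (31 and 13) and Col3a1 (21 and 2) among the 9 and Col1a1 (-5 and 0) and Postn (-2 and 0) among the 4. Here and for the endothelium list, readings below both floors are given no ratio, and their directions are not read as differences. The same count over all genes below both floors was not made, and the floor itself was higher in epithelium, 44.5 against 32. The summed signals of the lists include readings below the floors, with negative values counted as 0. These sums are therefore not read as differences either. Of 6 retina markers, 1 was measured, Sfrp2 (1256 and 139.5, 9.0-fold higher in epithelium). The list summed to 1298 and 163.5, mostly from this 1 gene. The other 5 were below both floors, 2 reading higher in epithelium and 3 in fibers, with Rax at 1 and 3. Of 7 blood cell markers, 4 were measured, Hba-a1 in fibers only (at least 1.72-fold), Aif1 (1.60-fold higher in epithelium), Hbb-y (1.02-fold) and Csf1r with no direction, and the sums were 223 and 273.5. The part of cells carrying any of these markers in the Hspg2 and Agrn differences was not tested.

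Over the 2 arrays, the genes nearest to Col4a2 in log2 intensity were Vbp1, with the same values of 47.5 and 137.5, Cacybp (46.5 and 136) and Ppp4r1 (47.5 and 141.5). Those nearest to Hspg2 were Alyref (535.5 and 81.5), Caskin2 (558.8 and 79.5) and Prpf3 (481.2 and 83.5), at distances of 0.11 to 0.15. With 2 arrays such likeness means only a similar pair of signals among 2986 genes.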

How the data were processed

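The values the authors deposited are probe intensities on a linear scale, from biotin-labelled total RNA on 1-colour Illumina arrays per the labels' protocols. All deposited intensities were whole numbers with a lowest value of -16, and 38.0% (epithelium) and 38.7% (fibers) lay at or under 0, which shows a background subtraction. The method of subtraction, scaling and rounding is not stated in the labels or the file. The deposited medians were 5 and 4 and the 95th percentiles 142 and 139.

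The arrays were quantile normalized together (numpy 2.4.6, pandas 2.3.3), which removes any difference in total signal. Platform annotation named 34885 probes with 1 symbol, 18 had several and 10378 had none. The floors came from 1580 probes of 1308 olfactory, vomeronasal, trace amine and keratin-associated genes. A bound under 1 counts as a log2 ratio of 0. The ratio code was tested on simulated data in which only bright probes changed, so that test does not cover ratios next to a floor. With 1 array per group no test was possible, and precision is limited by the number of arrays.

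The members and the 14 other gene lists were chosen with earlier results of these data known. Named genes are the members and, from each other list, up to 4 measured genes with the largest absolute log2 ratio, besides the 3 nearest genes to the highest and the lowest member. Foxe3, Gja3, Col4a3, Col4a4, Lamc1, Pecam1, Cdh5, Tie1, Col1a1, Col1a2, Col3a1, Postn and Rax were chosen after their values were seen. From the housekeeping list the rule gave Rab7 (9.05-fold), Psmb2 (at least 8.54-fold), Psmb4 (4.85-fold) and Chmp2a (at least 4.00-fold), all higher in fibers, with a second Chmp2a probe at least 2.48-fold higher in epithelium. In all, 11 alternatives were planned, changing the scaling, the floor, the probe or the fold counted.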

Additional observations from a re-analysis of the deposited data

How the results depend on the processing

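The main counts, 3 capsule genes reaching 2-fold on the fibers side and 2 on the epithelium side, were the same with the values as deposited, with the arrays scaled to the same 75th percentile (23 on both arrays, so no change), with a loess fit (span 0.3, on values with 20 added), with 1 common floor (17.7% and 15.8% of all measured genes) and when 1.5-fold was counted (24.6% and 31.1%). With the mean of all probes they were 4 and 2 (14.0% and 16.1%). Scaled to housekeeping genes, a factor of 1.93, they were 0 and 4 (3.82% and 45.1%). With the 99th percentile floor, 110.5 in epithelium and 80.7 in fibers, they were 1 and 1, since Col4a2, Col4a5 and Agrn then had smaller bounds, against 11.0% and 14.9% of all genes measured there. With no floor and 50 added they were 1 and 2 (5.14% and 5.06% of all genes). With the second brightest probe, which 7 genes have and which was measured for 5, they were 1 (Sparc) and 2 (Hspg2 and Nid1), against 13.6% and 15.9%. Counting 3-fold they were 0 and 2 (7.19% and 9.30%). None of the 5 members past 2-fold in the main processing changed sign under any setting that gave it a value. A bound is stopped at 0, so it cannot change sign while the same array alone clears its floor. Nid1, Col4a6, Serpinh1 and Sparc had both signs over the settings. All probes of Col18a1, Col4a3 and Col4a4 lay below both floors. No paired analysis was possible because each group has 1 sample.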
